A study of Mus musculus with 96 samples.

Results

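The 10 genes described here make or feed the replication fork: the 6 MCM helicase subunit genes Mcm2, Mcm3, Mcm4, Mcm5, Mcm6 and Mcm7, the sliding clamp gene Pcna, the ribonucleotide reductase genes Rrm1 and Rrm2, and the thymidine kinase gene Tk1. They were chosen by name, and all 10 were found among the 19836 genes of the count table. Each of the 10 also passed a minimum of 30 reads over all cells, as did 15239 genes in all. Read counts came from 96 single cells of C57BL/6 mouse embryos, sorted 1 cell to a well and amplified with a SMART-Seq kit. The cells were labelled as precursors of haematopoietic stem cells (pre-HSCs) or as haematopoietic stem cells (HSCs), and the study followed the step from the first to the second.

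The 4 groups were 48 pre-HSCs of the E11.5 aorta-gonad-mesonephros (AGM) region, 16 pre-HSCs of the E11.5 yolk sac, and 16 HSCs each of the E12.5 and the E14.5 fetal liver. The surface gate was Ter119-CD11b-CD144+c-kit+EPCR+ at E11.5, Ter119-Sca-1+c-kit+EPCR+ at E12.5 and Ter119-Sca-1+c-kit+CD48-CD150+ at E14.5. Tissue, age and gate therefore cannot be told apart between the pre-HSC and liver groups, nor age and gate between the E12.5 and E14.5 liver groups. No animal or litter is named for any cell, which makes each group 1 sample, so no test was possible, and every interval below covers counting error only. A group level is the reads summed over its cells, as CPM, that is, counts scaled to the same total for every group. A ratio is the log2 ratio of those pooled CPM after 1 CPM was added, which makes changes of weakly detected genes look smaller.

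Before replication, a pair of MCM hexamers is loaded at each origin, and in S phase the hexamer unwinds the DNA as the core of the replicative helicase. PCNA is the ring that holds the polymerases on the template. RRM1 and RRM2 are the large and small subunits of ribonucleotide reductase, which makes deoxyribonucleotides, and TK1 salvages thymidine. Transcripts of these genes accumulate around the G1/S transition under E2F factors, whereas genes of chromosome segregation peak later, in G2 and mitosis. Many fetal HSCs are known to cycle, in contrast to most adult HSCs, which are quiescent.

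Single wells held between 250235 and 1926882 reads. Genes detected per cell had a median of 5523 in the AGM and 5350 in the yolk sac, and of 4036 and 4839 in the E12.5 and E14.5 liver. All 8 haematopoietic markers (Ptprc, Kit, Spi1, Runx1, Myb, Cd34, Itga2b and Vav1) had reads in every group. At E12.5, 1 of the 8 was at least 2-fold lower than in the AGM, with a ratio of -5.13. Their sum in single cells ran from 255 to 4767 CPM in the AGM and from 636 to 3092 CPM in the yolk sac. It ran from 0 to 2816 CPM at E12.5 and from 491 to 2936 CPM at E14.5. The 8 endothelial markers summed to 956 CPM in the AGM, 373 CPM in the yolk sac, 573 CPM in E12.5 cells and 345 CPM in E14.5 cells, with Kdr at 0 at E12.5 and Cldn5 and Sox17 at 0 at E14.5. Despite Ter119-negative gates, the 9 erythroid markers summed to 605 CPM at E12.5 (35.7 to 5651 in single wells) and to 28941 CPM at E14.5 (13.9 to 230243), against 57.6 CPM in the AGM and 51.8 CPM in the yolk sac. Adult globin genes exceeded 1000 CPM in E12.5 wells 2 and 8 and in E14.5 wells 2, 3, 8, 13 and 16. E12.5 well 8 was also the shallowest of that group, with 250235 reads, 1011 genes and no read of any of the 10 genes.

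Promoter sequences are shown for Mcm3 and Rrm2, which had the lowest E12.5 to AGM ratios of the 10 genes, and for Mcm5 and Mcm6, which carry E2F letters upstream of their start, as does 1 of the windows of Mcm7, which is not printed. Each is the 250 bases before the transcription start in RefSeq on GRCm38.p6, on the gene's own strand. Capitals mark the letters TTTCCCGC, TTTCGCGC, TTTGCCGC or TTTGGCGC, which fit the E2F consensus, and CCAAT, the letters bound by NF-Y, each on either strand and overlapping where matches share bases.
Mcm3, chr1:20820313-20820562, minus strand: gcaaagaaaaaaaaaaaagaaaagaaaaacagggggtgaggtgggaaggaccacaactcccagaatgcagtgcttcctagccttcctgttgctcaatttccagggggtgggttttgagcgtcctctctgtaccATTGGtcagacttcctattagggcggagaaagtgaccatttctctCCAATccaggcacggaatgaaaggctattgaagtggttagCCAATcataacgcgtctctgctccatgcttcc
Mcm5, chr8:75109259-75109508, plus strand: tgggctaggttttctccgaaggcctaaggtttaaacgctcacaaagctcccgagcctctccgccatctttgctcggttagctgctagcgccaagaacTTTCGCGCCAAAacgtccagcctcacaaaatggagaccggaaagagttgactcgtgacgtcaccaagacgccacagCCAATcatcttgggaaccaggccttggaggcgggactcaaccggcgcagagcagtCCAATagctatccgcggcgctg
Mcm6, chr1:128359706-128359955, minus strand: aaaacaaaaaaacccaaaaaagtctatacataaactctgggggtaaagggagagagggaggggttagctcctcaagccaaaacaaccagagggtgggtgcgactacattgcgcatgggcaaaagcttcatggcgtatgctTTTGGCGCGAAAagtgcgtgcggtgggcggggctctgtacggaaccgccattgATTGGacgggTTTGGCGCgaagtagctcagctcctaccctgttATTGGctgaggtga
Rrm2, chr12:24708004-24708253, plus strand: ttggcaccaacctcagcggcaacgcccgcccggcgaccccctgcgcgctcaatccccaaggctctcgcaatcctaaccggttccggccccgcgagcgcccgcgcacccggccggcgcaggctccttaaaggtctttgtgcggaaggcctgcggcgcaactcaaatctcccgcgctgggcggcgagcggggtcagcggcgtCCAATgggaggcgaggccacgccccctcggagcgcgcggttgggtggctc

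RefSeq promoter windows of 300 bases, which include 50 bases after the start, were matched for 9 of the 10 genes (all but Mcm4), in 10 windows. The E2F letters were present for 4 of the 9 (Mcm3, Mcm5, Mcm6 and Mcm7), and 2.26% of 32817 such windows held them. In Mcm3 they lay after the start, outside the stretch printed above. CCAAT was present for 8 of the 9, all but Tk1, and 37.4% of all windows held it. Rrm2, shown above, had 1 CCAAT match and none of the E2F letters, which says only that these letters are not in this window. These matches are a description of the sequence and were not compared with the levels.

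Every AGM cell had reads of at least 4 of the 10 genes and every yolk sac cell of at least 7, and most cells of all groups had reads of 6 or more. The share was 91.7% in the AGM (44 of 48 cells, exact Clopper-Pearson 95% interval 80.0 to 97.7), 100% in the yolk sac (16 of 16, 79.4 to 100), 81.25% at E12.5 (13 of 16, 54.4 to 96.0) and 87.5% at E14.5 (14 of 16, 61.7 to 98.4). These intervals count cells within 1 sample each and give no test between groups. The boundary of 6 is a point on a range and not a class of cells: at E12.5 a single cell had exactly 6 and 5 had 7, and in the AGM 2 cells had 5 and 1 had 6. The cells below it were AGM cells 33, 35, 40 and 45, E12.5 cells 8, 10 and 16, and E14.5 cells 10 and 14. The E12.5 share also depended on genes with few reads. When a gene needed at least 10 CPM to count as detected, the share with 6 or more was 56.25% at E12.5. At that minimum it was 87.5% or more in each of the other groups.

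Stricter counts were lowest at E12.5. The median number of the 10 genes detected was 9 in the AGM, 10 in the yolk sac, 7 in E12.5 cells and 9.5 in E14.5 cells. With 8 or more required, the share was 85.4% in the AGM, 87.5% in the yolk sac, 43.75% in E12.5 cells and 81.25% in E14.5 cells. All 6 Mcm genes were found together in 35 AGM cells (72.9%, 58.2 to 84.7), 11 yolk sac cells (68.75%, 41.3 to 89.0), 3 E12.5 cells (18.75%, 4.05 to 45.6) and 10 E14.5 cells (62.5%, 35.4 to 84.8). In wells thinned to 690000 reads, after 5 AGM, 0 yolk sac, 2 E12.5 and 2 E14.5 cells with fewer reads were dropped, the complete hexamer set was found in 32, 10, 2 and 10 cells.

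E12.5 wells also had fewer genes detected in general, and the number of the 10 genes detected followed the number of all genes detected across cells. Spearman's rho between these numbers, in thinned reads, was 0.60 in 43 AGM cells, 0.76 in 16 yolk sac cells, 0.78 in 14 E12.5 cells and 0.55 in 14 E14.5 cells. After thinning, the median number of genes detected was 5283, 5203, 4185 and 5052 in these groups. The part of general detection in the count of replication genes was not tested.

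**Figure D1:**
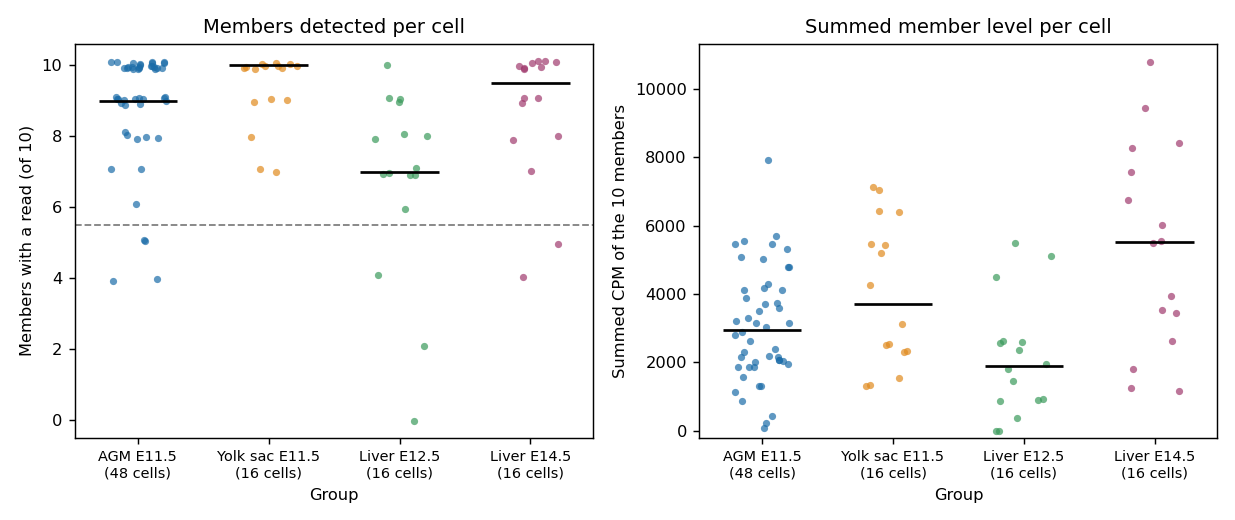
Number of the 10 genes with a read (left) and their summed CPM (right) in each cell of the 4 groups, with a point for each cell and a line at the group median. The dashed line separates cells with 6 or more genes from the rest. The medians are 9, 10, 7 and 9.5 genes and 2960, 3703, 1882 and 5539 CPM, and points are spread sideways, and slightly vertically on the left, to show ties.

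The summed level of the 10 genes varied widely within every group. It ran from 79.2 to 7935 CPM in AGM cells (median 2960), from 1321 to 7145 CPM in the yolk sac (median 3703), from 0 to 5487 CPM at E12.5 (median 1882) and from 1165 to 10783 CPM at E14.5 (median 5539). All groups overlap in range. Cells above 5000 CPM numbered 8 of 48 in the AGM, 7 of 16 in the yolk sac, 2 of 16 at E12.5 and 9 of 16 at E14.5. Cells under 1000 CPM numbered 4 in the AGM and 6 at E12.5, with 0 in the yolk sac and at E14.5.

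Among the helicase genes, Mcm7 (chr5:138164583-138172422, GENCODE on GRCm38) had the highest and Mcm4 (chr16:15623897-15637400) the lowest level per kilobase of exon in each group. On this scale of CPM per kilobase, Mcm7 was at 160 in the AGM, 217.9 in the yolk sac, 137 in E12.5 cells and 266 in E14.5 cells, and Mcm4 at 52.2, 72.8, 26.4 and 93.8. The ratio of Mcm7 to Mcm4 was 3.07 in the AGM, 2.99 in the yolk sac, 5.18 in E12.5 cells and 2.83 in E14.5 cells. Mcm4 was the lowest of the 6 with each cell left out in turn, except in 1 of the 16 settings at E14.5. Mcm7 was the highest in every such setting, but 321 bases of its exons overlap Ap4m1 and 64 overlap Cops6 on the other strand. Whether the counting used strand is not given in the sources used here, so reads of Mcm7 and these partners may not be separated, and the same holds for Tk1 (chr11:117815526-117826092) and 83 bases of Afmid. The pseudogene Pcna-ps2 also had reads in the table, so the separation of its reads from those of Pcna is uncertain as well.

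With all cells kept, the order between these ends differed in every group, and Mcm3 (chr1:20802968-20820312) took another place in each. Per kilobase it was 2nd of the 6 in the AGM (137), 4th in the yolk sac (144.3), 5th in E12.5 cells (45.6) and 3rd in E14.5 cells (201.4). These places depended on single cells. Without E12.5 cell 14, Mcm2 fell from 169.5 to 107.6 CPM and lay below Mcm3 per kilobase. Without yolk sac cell 10, Mcm5 fell from 528 to 487 CPM and lay below Mcm3 per kilobase. The level of Mcm3 in single AGM cells ran from 0 to 1116 CPM with a median of 315 CPM, and 46 of 48 cells had a read. At E12.5 it ran from 0 to 615 CPM with a median of 86.1 CPM, and 12 of 16 cells had a read. The ranges overlap, with the E12.5 median lying in the lower part of the AGM range.

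**Figure D2:**
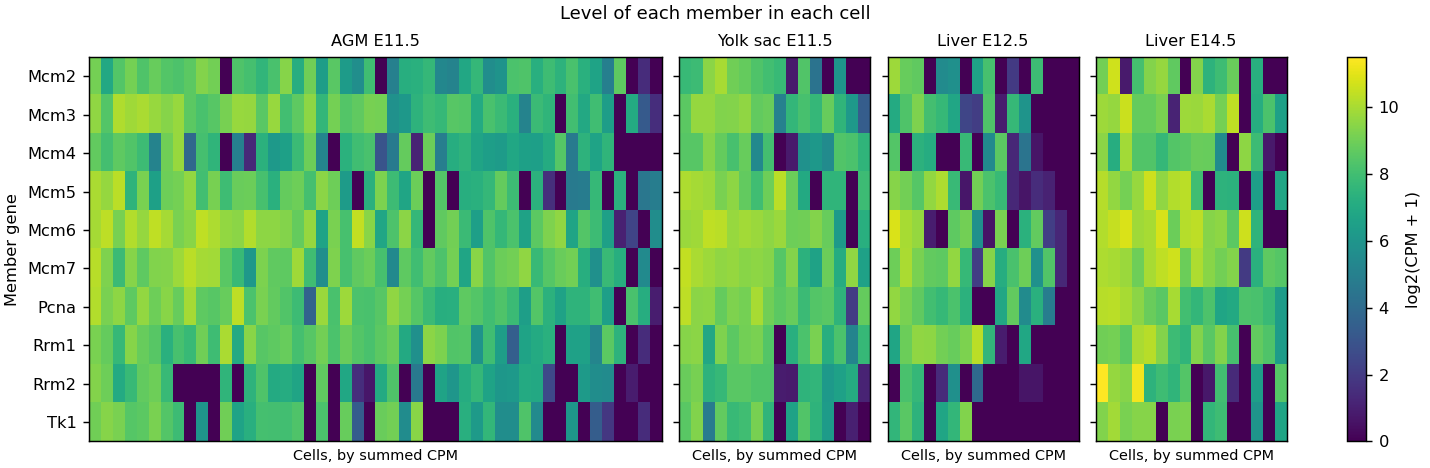
Level of each of the 10 genes as log2(CPM + 1), by colour, in each cell, with the cells of a group ordered from the highest to the lowest summed CPM. Dark squares are cells with no read, and they are most frequent for Rrm2 and Tk1 and in the E12.5 liver group.

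Yolk sac pre-HSCs had higher pooled levels than AGM pre-HSCs for all 10 genes, by less than 2-fold each. The ratios ran from 0.07 for Mcm3 to 0.87 for Rrm2, with a median of 0.41, whereas the median over all 15239 genes was -0.20. Of all 15239 genes, 38.2% were higher in the yolk sac. No gene of the 10 was past 2-fold, where 8.61% of all genes were at least 2-fold higher in the yolk sac and 21% at least 2-fold lower. Among the 1428 genes at the same AGM level as the 10 (129 to 577 CPM), 0.84% were at least 2-fold higher, and their median ratio was 0.01. The sign for Mcm3 rested on 1 cell, since without yolk sac cell 6 its ratio was -0.05.

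Rrm2, Mcm5 and Mcm4 differed most between the E11.5 tissues. Rrm2, the regulated small subunit of the reductase (chr12:24708241-24714146), was at 129 CPM in the AGM (95% Poisson interval 126 to 132) and 236 CPM in the yolk sac (230 to 243). Single AGM cells ran from 0 to 652 CPM with a median of 74.3 CPM, and yolk sac cells from 0.79 to 567 CPM with a median of 182.4 CPM. Of 48 AGM cells, 34 had Rrm2 reads (70.8%, 55.9 to 83.0), as did all 16 yolk sac cells (100%, 79.4 to 100). In thinned reads, 29 of 43 AGM cells (67.4%) and 14 of 16 yolk sac cells (87.5%) had Rrm2 reads. Yolk sac cells 10, 12 and 13 were at only 0.85, 1.18 and 0.79 CPM of Rrm2. Mcm5 (chr8:75109569-75128439) was at 312 CPM in the AGM and 528 CPM in the yolk sac, a ratio of 0.76. Mcm4 was at 187.5 and 261 CPM, a ratio of 0.48. The tissues overlap in single cells for each of these genes.

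E12.5 liver HSCs had lower pooled levels than AGM pre-HSCs for 9 of the 10 genes, where 40.5% of all genes were higher. Rrm2 was lower with a ratio of -2.25 and Mcm3 with -1.58, and these 2 were past 2-fold, where 26% of all genes were at least 2-fold lower and 15.6% at least 2-fold higher. The share of genes 2-fold lower among the 10 is thus near the background over all genes. Among the 1428 genes at the AGM level of the 10, 7.14% were at least 2-fold lower. The median ratio of the 10 was -0.66, against -0.20 over all genes and -0.11 over those 1428.

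Rrm2 showed the lowest ratio of the 10 at E12.5. It was at 26.3 CPM (24.1 to 28.8) over the group, 7 of 16 cells had a read (43.75%, 19.8 to 70.1), and single cells ran from 0 to 291 CPM with a median of 0. E12.5 cell 1 held 40.04% of the group's Rrm2 reads, and without it the level was 16.7 CPM and the ratio -2.88. Rrm1, the partner subunit that the enzyme needs in the same complex (chr7:102441695-102469771), was at 330 CPM (322 to 338) at E12.5, against 316 CPM (311 to 320) in the AGM. Its ratio was 0.06, and it was -0.16 without E12.5 cell 6. Reads of Rrm1 per read of Rrm2 therefore numbered 2.45 in the AGM, 1.60 in the yolk sac, 12.53 in E12.5 cells and 1.07 in E14.5 cells. Leaving out single cells, the E12.5 ratio ran from 10.5 (without cell 6) to 18.8 (without cell 12), and the highest value in another group was 2.62.

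Tk1, whose level in cycling cells follows S phase, was at 117 CPM at E12.5 (113 to 122), against 200 CPM in the AGM (195.98 to 203.1), a ratio of -0.76. Tk1 reads were found in 6 of 16 E12.5 cells, from 0 to 630 CPM with a median of 0, and in 34 of 48 AGM cells, from 0 to 691 CPM with a median of 72.0 CPM. E12.5 cell 4 held 46.4% of that group's Tk1 reads, and the ratio was -1.52 without it. Cells with neither Rrm2 nor Tk1 numbered 8 of 48 in the AGM (16.7%, 7.48 to 30.2), 0 of 16 in the yolk sac (0%, 0 to 20.6), 7 of 16 at E12.5 (43.75%, 19.8 to 70.1) and 3 of 16 at E14.5 (18.75%, 4.05 to 45.6). The 0 in the yolk sac rests on low levels: cells 10 and 12 had no Tk1 read and Rrm2 at 0.85 and 1.18 CPM. Rrm2 and Tk1 together made up 10.1% of the reads of the 10 genes in the AGM, 10.8% in the yolk sac, 6.53% in E12.5 cells and 15.1% in E14.5 cells.

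Of the other helicase genes at E12.5, Mcm4 had a ratio of -0.98, Mcm2 of -0.55, Mcm6 of -0.51, Mcm7 of -0.23 and Mcm5 of -0.07. Pcna (chr2:132249162-132253314) had a ratio of -0.87, at 220 CPM (213.5 to 226.8) against 403 CPM (398 to 409) in the AGM. E12.5 cell 14 stood at the top of its group for Mcm2, Mcm4, Mcm6 and Pcna, with 41.6% of the group's Mcm2 reads and 36.3% of its Mcm6 reads. Without that cell the Mcm2 ratio was -1.20, the median ratio of the 10 genes was -1.12, and 6 of the 10 were at least 2-fold lower. Without E12.5 wells 8 and 10, a choice made after seeing the data, the Mcm5 ratio was 0.00 and the median of the 10 was -0.58. The Mcm5 ratio was 0.07 without E12.5 cell 13, so its sign rested on single cells. Macrophage markers differed between the same groups: 8 of 8 were higher at E12.5 than in the AGM (5 at least 2-fold, median 2.53), and 7 of 8 were lower at E14.5 than at E12.5 (median -1.52). Their summed level in single cells ran from 0 to 6526 CPM in the AGM, from 0 to 920 CPM in the yolk sac, from 0 to 24897 CPM in E12.5 cells and from 77.5 to 2263 CPM in E14.5 cells. C1qa, C1qb and C1qc were at 0 in the yolk sac, and Csf1r and Mrc1 were at 0 at E14.5. Their part in the levels of the 10 genes was not tested.

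E14.5 liver HSCs had higher pooled levels than E12.5 liver HSCs for all 10 genes, where 40.8% of all genes were higher. Of the 10, 8 were at least 2-fold higher, where 18.7% of all genes were at least 2-fold higher and 18.2% at least 2-fold lower. Among the 5139 genes at the E12.5 level of the 10 (26.3 to 405 CPM), 5.70% were at least 2-fold higher. The exceptions were Mcm7 with a ratio of 0.96 and Rrm1 with 0.62, and Mcm2 had 1.24, or 1.89 without E12.5 cell 14. The median ratio of the 10 was 1.23, against 0.00 over all genes, and it ran from 1.09 without E14.5 cell 1 to 1.71 without E12.5 cell 14. This comparison shares the E12.5 cells with the one above, so low E12.5 values enter both, and the gate changed from EPCR to CD48 and CD150 along with age.

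Mcm3 was at 610 CPM (600 to 621) at E14.5, against 138 CPM (133 to 143.7) at E12.5, a ratio of 2.13. E14.5 cells ran from 0 to 1511 CPM for Mcm3 with a median of 556 CPM, and 15 of 16 had a read. Mcm4 was at 337 CPM (329 to 345) against 94.7 CPM (90.4 to 99.2), a ratio of 1.82. E14.5 cells ran from 0 to 966 CPM for Mcm4 with a median of 331 CPM, and E12.5 cells from 0 to 394 CPM with a median of 1.01 CPM. For both genes the groups overlap and the E14.5 median lies in the upper part of the E12.5 range. Tk1 was at 364 CPM (356 to 372), a ratio of 1.62, and 2.38 without E12.5 cell 4. Pcna was at 516 CPM (506 to 526), a ratio of 1.22, and all 16 E14.5 cells had Pcna reads, from 79.7 to 1284 CPM.

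Rrm2 had the highest ratio of the 10, 4.12, with 475 CPM at E14.5 (466 to 485), and the ratio was 4.75 without E12.5 cell 1. Reads were found in 13 of 16 E14.5 cells, from 0 to 2825 CPM with a median of 213.9 CPM. E14.5 cells 3 and 8 stood apart, at 2825 and 2504 CPM, and held 56.0% of the group's Rrm2 reads. The next highest cell was at 830 CPM. Wells 3 and 8 were also among the wells with adult globin reads, at 145469 and 129097 CPM of globin. Without the globin wells of both liver groups, Rrm2 was at 232.9 CPM at E14.5, against 23.8 CPM at E12.5, and the ratio was 3.24. The part of erythroid RNA or cells in the Rrm2 level was not tested.

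**Figure D3:**
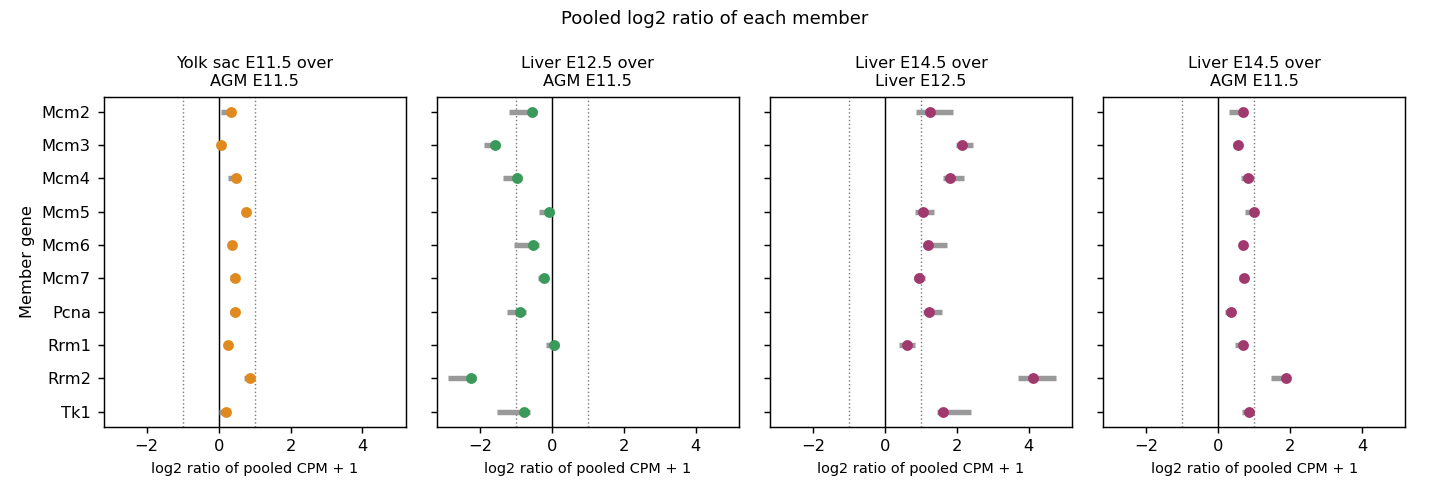
Log2 ratio of pooled CPM + 1 for each of the 10 genes in the 4 comparisons (dots), with a grey bar for the range when each cell is left out in turn and dotted lines at 2-fold. Rrm2 lies at -2.25 in E12.5 liver over AGM and at 4.12 in E14.5 over E12.5 liver, and Rrm1 at 0.06 and 0.62.

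Against AGM pre-HSCs, E14.5 HSCs were higher for all 10 genes and past 2-fold for Rrm2 alone, with a ratio of 1.87. Over all genes, 39.7% were higher, 15.3% at least 2-fold higher and 25.3% at least 2-fold lower. Among the 1428 genes at the AGM level of the 10, 2.24% were at least 2-fold higher. The ratios of the other 9 ran from 0.35 for Pcna to 1.00 for Mcm5, which lay just under 2-fold at 624 against 312 CPM. The median of the 10 was 0.71, against -0.23 over all genes. Without the globin wells the Rrm2 ratio was 0.85, so that none of the 10 was past 2-fold, and the median of the 10 was 0.70.

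The genes that work with these 10 were described by lists named for their function, 96 genes in all. Of the 96, 71 were higher in the yolk sac than in the AGM (6 at least 2-fold), 35 were higher at E12.5 than in the AGM, and 72 were higher at E14.5 than at E12.5 (29 at least 2-fold). Over all 15239 genes, 38.2%, 40.5% and 40.8% were higher in these 3 comparisons. At least 2-fold higher were 8.61% of all genes in the yolk sac over AGM and 18.7% at E14.5 over E12.5. At E12.5, 15 of the 96 were at least 2-fold lower than in the AGM and 6 at least 2-fold higher, where 26% and 15.6% of all genes were, so neither count exceeds the background. The medians were 0.25, -0.21 and 0.65 in these 3 comparisons, smaller in size than those of the 10 genes. At E14.5 over AGM the median was 0.39, and 0.25 without the globin wells.

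In the yolk sac, genes of clamp loading and strand maturation had the highest median of these lists over AGM, 0.58, with 15 of 19 higher and 2 at least 2-fold. Over all genes 38.2% were higher in the yolk sac and 8.61% at least 2-fold higher, so the count of 2 lay near the background. Dna2, a nuclease that trims Okazaki fragment flaps, was at 21.2 CPM in 23 of 48 AGM cells and 97.0 CPM in 10 of 16 yolk sac cells, a ratio of 2.14. Chtf18, of an alternative PCNA loader, had a ratio of 1.59, or 1.05 without yolk sac cell 15. Ccna2, which encodes the S and G2 cyclin A2, was at 84.6 CPM in the AGM and 183.5 CPM in the yolk sac, a ratio of 1.11. Pole2, a subunit of polymerase epsilon, went the other way, at 31.9 CPM and 15.1 CPM, a ratio of -1.03.

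Regulators of the G1/S transition lay lowest of these lists at E12.5. Of 16, 13 were lower than in the AGM, with a median of -0.82, where 40.5% of all genes were higher. Of the 16, 6 were at least 2-fold lower, where 26% of all genes were. The number at least 2-fold lower ran from 5 to 9 when single cells were left out. Cdc25a, a phosphatase that activates cyclin-dependent kinases, was at 26.3 CPM in the AGM and 1.05 CPM at E12.5, where 1 of 16 cells had a read. Ccne2, which encodes cyclin E2, was at 15.4 CPM in the AGM and 0.26 CPM at E12.5, from 5 reads in 1 cell. E2f1, an activating E2F factor, was at 46 CPM in 28 of 48 AGM cells and 6.88 CPM in 2 of 16 E12.5 cells, a ratio of -2.58, or -3.54 without E12.5 cell 1. E2f2 had 378 reads, in 12 of 48 AGM cells, and 0 at E12.5, a ratio of -2.86. Its AGM reads came from few cells and are not independent, so no bound on the difference is given. These genes are at low levels, so a cell can hold all the reads of its group.

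At E14.5, 15 of the 16 G1/S regulators were higher than at E12.5, with a median of 1.16, where 40.8% of all genes were higher. Of the 16, 10 were at least 2-fold higher, where 18.7% of all genes were. Without the globin wells 13 of 16 were higher, 6 at least 2-fold, and the median was 0.62. E2f2 was at 29.3 CPM at E14.5, in 5 of 16 cells, and had no read at E12.5. E14.5 cell 16, a globin well, held 61.5% of the E14.5 reads. The ratio was 4.92 with that cell and 3.69 without it. Ccne2 and Cdc25a were each at 23.5 CPM, in 6 and 5 of 16 cells. E2f7, a repressing E2F factor, was at 25.6 CPM in 4 cells, and at 1.31 CPM in 1 cell at E12.5.

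Origin licensing and firing genes, which load and activate the MCM hexamer, were lower at E12.5 than in the AGM for 15 of 25 (median -0.11, or -0.26 without E12.5 cell 4 and -0.01 without AGM cell 34), with 3 at least 2-fold lower and 3 at least 2-fold higher, and each of these counts ran from 1 to 4 when single cells were left out. Over all genes 40.5% were higher at E12.5 and 26% at least 2-fold lower, so the count of 10 higher genes lay near the background. Cdt1, which loads MCM onto origins, was at 125 CPM in the AGM and 37.9 CPM at E12.5, a ratio of -1.69, and E12.5 cell 14 alone held 63.1% of the E12.5 reads, with a ratio of -2.95 when it was left out. Orc6, a subunit of the origin recognition complex, was at 139.4 and 63.4 CPM, a ratio of -1.12. Mcm10, a replication factor that is no part of the hexamer, went the other way, at 27.6 CPM in the AGM and 74.3 CPM at E12.5, a ratio of 1.40, and 0.80 without E12.5 cell 15. At E14.5, 20 of the 25 were higher than at E12.5 (median 0.67, 6 at least 2-fold). The count of 6 lay near the background, as 18.7% of all genes were at least 2-fold higher at E14.5, where 40.8% were higher. Cdt1 was at 180.9 CPM there, a ratio of 2.22 to E12.5, or 3.49 without E12.5 cell 14. Dbf4, the activator of the CDC7 kinase, was lower, at 42.1 against 130 CPM, a ratio of -1.60.

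Of 12 genes of the replicative polymerases, 7 were lower at E12.5 than in the AGM (median -0.09, or 0.02 without E12.5 cell 4), and 9 were higher at E14.5 than at E12.5 (median 0.89, with 5 at least 2-fold, or 3 without E12.5 wells 8 and 10). Pola1, the catalytic subunit of polymerase alpha, was at 38.04 CPM in the AGM, 14.4 CPM in E12.5 cells and 77.2 CPM in E14.5 cells. E12.5 cell 2 held 73.5% of its E12.5 reads, and the E12.5 ratio to AGM was -1.34 with that cell and -2.89 without it. Of 19 clamp loading and strand maturation genes, 10 were lower at E12.5 (median -0.01, or 0.08 without E12.5 cell 5), and 15 were higher at E14.5 than at E12.5 (median 0.45, with 4 at least 2-fold, and 2 to 5 when single cells were left out). Over all genes 18.7% were at least 2-fold higher at E14.5, so the count of 4 lay near the background. At E12.5, 40.5% of all genes were higher than in the AGM, so the counts of 7 and 10 lower genes lay near the background. From E12.5 to E14.5, 40.8% of all genes were higher. Chaf1b, of the chromatin assembly factor that PCNA recruits, was at 142.1 CPM in the AGM, 74.8 CPM in E12.5 cells, with 44.2% of those reads in cell 3, and 275 CPM in E14.5 cells. Rfc1, the large subunit of the clamp loader, was at 68.4, 144.4 and 53.8 CPM.

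Of 24 other genes of nucleotide supply, 16 were lower at E12.5 than in the AGM (median -0.38, 4 at least 2-fold). Over all genes 26% were at least 2-fold lower, so the count of 4 did not exceed the background. Higher at E12.5 were 8 of the 24, against 40.5% of all genes. Gart, an enzyme of purine synthesis, was at 197.5 and 53.7 CPM, a ratio of -1.86. Rrm2b, the alternative small subunit of the reductase used outside S phase, was at 7.51 CPM in the AGM, 1.84 CPM in the yolk sac, 0.42 CPM in E12.5 cells and 2.57 CPM in E14.5 cells, and its 8 E12.5 reads came from 1 cell. Yolk sac cell 10 held 73.2% of the yolk sac reads of Rrm2b, with a ratio to AGM of -1.59, or -2.49 without it, and E14.5 cell 5 held 54.7% of the E14.5 reads. Its E12.5 level, like that of Rrm2, was the lowest of the 4 groups. Tk2, the mitochondrial thymidine kinase, was at 10.2 CPM in the AGM, 23.2 CPM in the yolk sac, 52.1 CPM in E12.5 cells and 4.08 CPM in E14.5 cells, and E12.5 cell 14 held 47.8% of its E12.5 reads and E14.5 cell 3 94.0% of its E14.5 reads. Yolk sac cell 10 held 54.1% of the yolk sac reads of Tk2, and its yolk sac ratio to AGM was 1.11 with that cell and 0.13 without it. At E14.5, 13 of the 24 were higher than at E12.5 (median 0.36), where 40.8% of all genes were. Without the globin wells, 19 of 24 were higher.

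Most of 20 G2/M genes were higher in each other group than in the AGM, and they differed in direction from the 10 replication genes at E12.5. In the yolk sac 16 of 20 were higher than in the AGM (median 0.41), and at E14.5 18 of 20 (median 0.74), close to the medians of 0.41 and 0.71 of the 10 genes. Of all genes, 38.2% were higher in the yolk sac and 39.7% at E14.5 than in the AGM. All 20 were higher in pooled level at E12.5 than in the AGM, 10 at least 2-fold, with a median ratio of 0.91. Over all genes 40.5% were higher and 15.6% at least 2-fold higher. Leaving out single cells, the count of higher G2/M genes was 17 to 20, and the median was 0.61 without E12.5 cell 3. Without the globin wells, 18 of 20 were higher and the median was 0.71. Summed over the list, the level was 3364 CPM in the AGM, 4353 CPM in the yolk sac, 6579 CPM in E12.5 cells and 5739 CPM in E14.5 cells. The medians of single cells, 1756 CPM in the AGM and 1692 CPM at E12.5, did not show this difference: E12.5 cells ran from 1.43 to 15221 CPM. With the mean of the cells' CPM in place of pooled reads, 17 of the 20 were higher and the median was 0.54. From E12.5 to E14.5, 12 of the 20 were lower (median -0.27), and without E12.5 cell 3 the median was 0.04. Higher were 8 of the 20, against 40.8% of all genes.

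**Figure D4:**
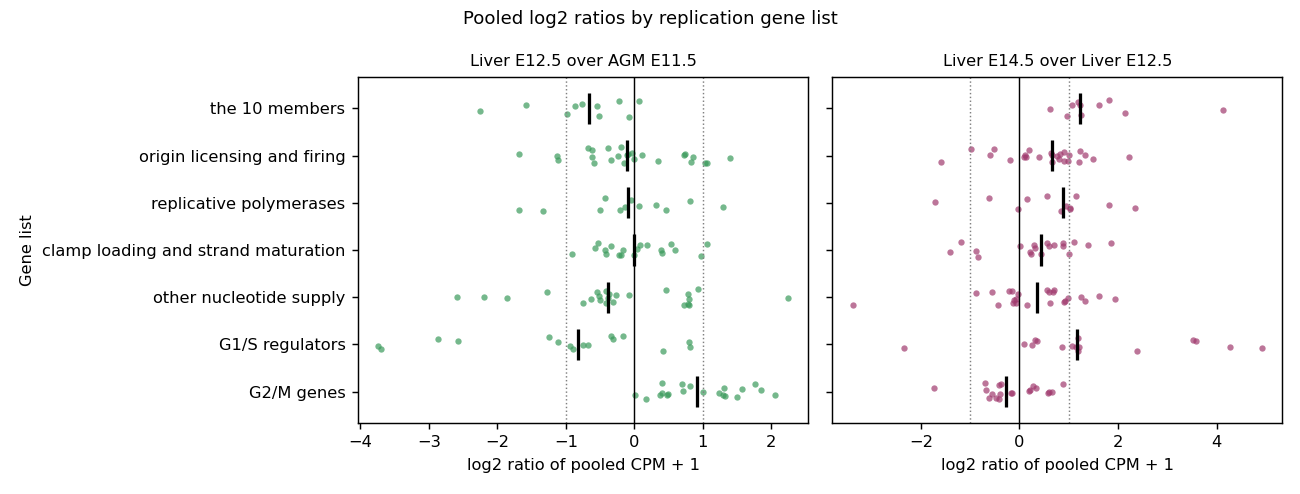
Log2 ratios of pooled CPM + 1 for the 10 genes and for each gene of 6 related lists, in E12.5 liver over AGM (left) and E14.5 over E12.5 liver (right), with a point for each gene and a line at each list's median. The 10 genes have medians of -0.66 and 1.23, G1/S regulators -0.82 and 1.16, and G2/M genes 0.91 and -0.27. E2f2, with 0 reads at E12.5, is plotted with the added 1 CPM.

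Across cells of a group the 10 genes varied together only in part. Over 43 thinned AGM cells, the median Spearman rho was 0.39 among the 15 pairs of Mcm genes, 0.44 among the 6 pairs of Pcna, Rrm1, Rrm2 and Tk1, and 0.23 among the 24 pairs between these sets. The same medians were 0.59, 0.73 and 0.54 in 16 yolk sac cells, 0.28, 0.34 and 0.31 in 14 E12.5 cells and 0.47, 0.36 and 0.28 in 14 E14.5 cells. These cells share library preparation and differ in detection, so the values are a description. The highest AGM pair was Rrm2 with Tk1 at 0.72, followed by Mcm5 with Pcna at 0.63 and Mcm3 with Mcm6 at 0.62. Mcm3 followed the sum of the other 9 most closely, at 0.72, and Mcm4 least, at 0.30. The sum of the 10 and the G2/M sum had a rho of -0.13 in the AGM, -0.07 in the yolk sac, 0.27 in E12.5 cells and -0.32 in E14.5 cells.

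**Figure D5:**
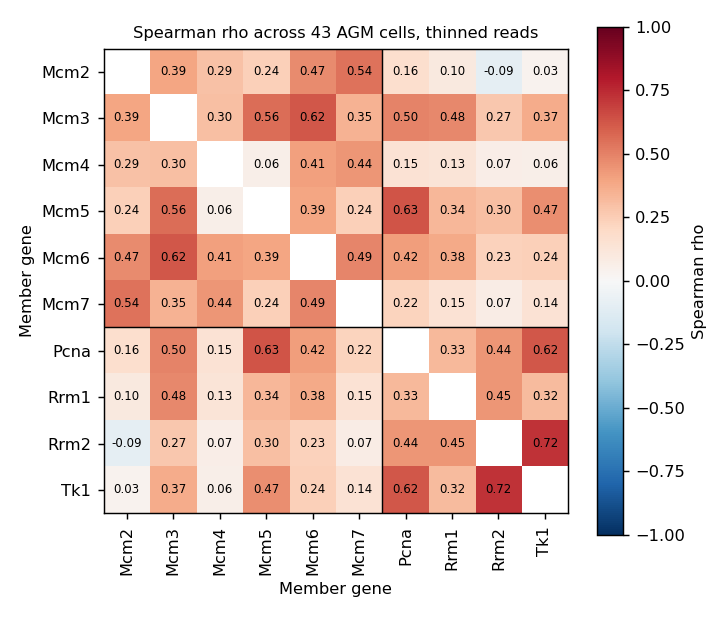
Spearman rho between each pair of the 10 genes across 43 AGM cells after thinning to 690000 reads, printed in each square and shown by colour, with lines between the Mcm genes and the other 4. Rrm2 with Tk1 is highest at 0.72.

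Outside the 10, the genes whose level was most like their sum over the 43 AGM cells were ranked among 8364 genes with a read in at least 25% of those cells. Gins2, a subunit of the GINS complex that joins MCM in the active helicase, came first with a rho of 0.80, and its rho was 0.52 in the yolk sac, 0.61 in E12.5 cells and 0.56 in E14.5 cells. Uhrf1, which recruits maintenance DNA methylation at forks, had a rho of 0.70 in the AGM and 0.11 at E12.5. Gmnn, which encodes the licensing inhibitor geminin, had 0.69 in the AGM and 0.19 at E12.5. Ppil1, a splicing-associated isomerase gene, had 0.62 in the AGM and -0.19 in the yolk sac. Hat1, a histone acetyltransferase that acts on new histone H4, had 0.62 in the AGM, 0.47 in the yolk sac, 0.71 in E12.5 cells and 0.62 in E14.5 cells. Gins2, Uhrf1 and Gmnn are themselves in the replication lists above, and Ppil1 and Hat1 are not.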

How the data were processed

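The values the authors deposited are raw counts of reads for each gene, whole numbers without molecular identifiers, for 96 cells in 1 table. The submitters' processing notes name FastQC, Trimmomatic 0.36, STAR, HTSeq and the build mm10. The annotation, the strand setting and filters are not given in the sources used here. The table held 19949 rows, and 113 rows sharing a symbol with an earlier row were summed into it. All 96 columns were matched to cells by name, and groups follow the labels. Cells needed 1000 genes, which removed 0.

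Reads were summed per group and scaled to CPM with exact Poisson intervals, and shares have exact Clopper-Pearson intervals, both at 95% (Python 3.11.15, numpy 2.4.6, pandas 2.3.3, scipy 1.17.1, matplotlib 3.10.9). PCR reads are not independent molecules, so intervals cover counting error only. With 1 sample a group, a call means a pooled ratio of at least 2-fold, and no p-value was computed. Totals ran from 250235 to 1926882 reads a cell. Gene positions and exon lengths are from GENCODE M21 on GRCm38.

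All 10 genes are named, with at most 4 genes of each other list and comparison by the largest absolute ratio, and the 5 genes most like the summed level in AGM. Not every gene picked by this rule is reported here. The 10 genes and the lists were chosen with earlier results of these data known. Alternatives were other detection minimums, thinning with seed 20, the mean of the cells' CPM, median-of-ratios scaling, 10 CPM added, 2000 genes per cell, no minimum on reads, and leaving out globin wells, the deepest cell of each group or each cell in turn. Leaving out E12.5 wells 8 and 10 was chosen after seeing the data. The calculation was tested on simulated Poisson counts, in which the cells of a group differed only in depth, unlike the cells here. That checks the arithmetic and not the spread between cells. Doublets were not called, as wells were sorted to 1 cell each. Of the hepatocyte markers listed, Apob and Alb had no row under these symbols in the count table. Hepatocyte markers summed to 64.5, 108, 30.5 and 37.9 CPM in AGM, yolk sac, E12.5 and E14.5. Macrophage markers summed to 775, 420, 1168 and 746 CPM.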

Additional observations from a re-analysis of the deposited data

How the results depend on the processing

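No paired analysis was possible because the numbers in the labels name no animal or litter and the results come from no test. Of the values of single genes among the 10 under the alternatives that kept or dropped sets of cells or changed the scale, 1 changed sign: Mcm5 at E12.5 over AGM was 0.00102 without E12.5 wells 8 and 10. Without E12.5 cell 13 alone it was 0.07. Others kept their sign but moved outside their counting interval. These were 22 of 70 values in yolk sac over AGM and 28 of 80 at E12.5 over AGM. They were 29 of 80 at E14.5 over E12.5 and 21 of 70 at E14.5 over AGM. With 8 or more of the 10 genes required, the E12.5 share was 43.75%. The median ratio of the 10 in yolk sac over AGM was 0.36 with the mean of the cells' CPM, 0.35 with thinned reads and 0.50 with median-of-ratios scaling. With thinned reads the medians were -0.837 at E12.5 over AGM, 1.43 at E14.5 over E12.5 and 0.79 at E14.5 over AGM. Genes of the 10 at least 2-fold higher at E14.5 over AGM numbered 2 with median-of-ratios scaling and 0 without globin wells, where the median of the other lists was 0.25. For E12.5 over AGM, the median of the polymerases was 0.0596 with thinned reads, and that of clamp loading genes was 0.00270 with median-of-ratios scaling and 0.017 without wells 8 and 10. The cause of these moves was not tested.

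When single cells were left out in turn, the share with 6 or more genes ran from 91.5 to 93.6% in AGM, from 100 to 100% in yolk sac, from 80.0 to 86.7% at E12.5 and from 86.7 to 93.3% at E14.5. The median ratio of the 10 ran from 0.33 to 0.46 in yolk sac over AGM, from -1.12 to -0.52 at E12.5 over AGM, from 1.09 to 1.71 at E14.5 over E12.5, and from 0.66 to 0.79 at E14.5 over AGM. Genes at least 2-fold lower at E12.5 over AGM numbered from 2 to 6, genes at least 2-fold higher at E14.5 over E12.5 from 7 to 9, and at E14.5 over AGM from 1 to 2. Median-of-ratios scaling moved the median of all genes by at most 0.07. Pooled levels weight each cell by its reads, so depth enters the levels and ratios as well as the counting intervals. Spearman's rho between the sum of the 10 and a cell's total reads before thinning was 0.36 in AGM and 0.59 in yolk sac. It was 0.26 at E12.5 and -0.06 at E14.5.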
